A study of Homo sapiens with 4 samples.

Results

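The aminoacyl-tRNA synthetase genes were examined in MDA-MB-231 cells, an established human line from a triple-negative breast cancer. The set held 35 genes listed by the enzymes they encode, with no threshold on their values, 19 for cytosolic and 16 for mitochondrial enzymes, out of 20263 gene IDs in the table. All 35 matched 1 ID each and passed the filter on low counts, which left 13612 genes to test. Cells had spent 24 h with the solvent DMSO (2 libraries, here D1 and D2) or with RB-1, by the title a compound derived from the CDK4/6 inhibitor ribociclib (2 libraries, R1 and R2). The labels give no dose of RB-1, and both groups shared the same serum-supplemented medium. Messenger RNA was counted per gene, with library totals of 34122874 to 37754168 counts. Separate cultures are not named for the libraries of a group, so the p-values cover the spread among these 4 libraries, which may be technical. Genes known in this line were present, with VIM at 3565 to 5423 CPM (counts-per-million of the scaled library) and AXL at 1512 to 1833, while ESR1 and CDH1 had at most 23 and 2 counts in any library. Of the other luminal and receptor genes looked at, PGR had at most 58 counts. ERBB2, EPCAM and GATA3 were detected, at 57.3 to 77.2, 9.46 to 13.5 and 2.25 to 21.9 CPM. The blood and endothelial markers PTPRC and PECAM1 summed to 0.901 to 1.81 CPM.

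Each synthetase joins an amino acid to its tRNAs, the step that supplies the ribosome. Most amino acids have separate nuclear genes for the cytosolic and the mitochondrial enzyme, while GARS1 and KARS1 serve both compartments, and EPRS1 carries both the glutamyl and the prolyl activity. The enzymes fall into classes I and II by their catalytic fold, and several cytosolic ones sit in a multi-synthetase complex held by scaffold proteins. When uncharged tRNAs build up, the kinase GCN2 raises translation of the transcription factor ATF4, which is known to induce many cytosolic synthetase genes through the C/EBP-ATF response element.

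The promoters are shown first because genes that carry this element went in opposite directions after RB-1. RefSeq promoter windows (GRCh38.p14, 250 bases before the start and 50 from it on, the first entry of a gene) were found for 16 cytosolic and 14 mitochondrial members, and LARS1, VARS1, YARS1, AARS2 and VARS2 had none. The core of the element, TGATGNAA on either strand, was in 6 of the 16 cytosolic windows (AARS1, CARS1, IARS1, MARS1, NARS1 and TARS1) and in 1 of the 14 mitochondrial ones (YARS2), against 178 of 10870 windows of tested genes (1.64%). The matched letters read TTGCATCA along the gene's strand in AARS1, CARS1, IARS1, MARS1 and TARS1, and TGATGCAA in NARS1. In CARS1, IARS1, MARS1, NARS1 and TARS1 the match lay within 14 bases of the start. The E-box CACGTG, the binding letters of MYC, was in 1 cytosolic window (IARS1) and 3 mitochondrial ones (CARS2, EARS2, MARS2), against 9.94% of all. The windows below are those of CARS1, whose transcript rose, of IARS1 and TARS1, whose transcripts fell, and of MARS1, which did not pass the test. They are given 5′ to 3′ on the strand of the gene with the element in capitals, and in IARS1 the E-box as well. They lie at chr11:3057374-3057673 (minus strand) for CARS1, chr12:57487818-57488117 (plus strand) for MARS1, chr9:92293648-92293947 (minus strand) for IARS1 and chr5:33440715-33441014 (plus strand) for TARS1.
CARS1: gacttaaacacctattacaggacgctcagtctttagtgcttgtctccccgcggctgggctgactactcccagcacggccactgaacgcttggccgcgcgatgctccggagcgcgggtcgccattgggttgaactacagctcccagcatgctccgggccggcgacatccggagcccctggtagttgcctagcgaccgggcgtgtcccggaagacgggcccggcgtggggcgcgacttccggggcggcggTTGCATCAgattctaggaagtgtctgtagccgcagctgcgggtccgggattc
MARS1: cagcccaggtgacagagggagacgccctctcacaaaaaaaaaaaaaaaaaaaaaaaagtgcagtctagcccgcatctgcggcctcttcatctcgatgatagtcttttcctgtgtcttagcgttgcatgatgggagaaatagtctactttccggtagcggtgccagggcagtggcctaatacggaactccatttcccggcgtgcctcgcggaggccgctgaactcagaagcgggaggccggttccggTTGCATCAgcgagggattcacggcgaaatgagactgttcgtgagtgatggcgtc
IARS1: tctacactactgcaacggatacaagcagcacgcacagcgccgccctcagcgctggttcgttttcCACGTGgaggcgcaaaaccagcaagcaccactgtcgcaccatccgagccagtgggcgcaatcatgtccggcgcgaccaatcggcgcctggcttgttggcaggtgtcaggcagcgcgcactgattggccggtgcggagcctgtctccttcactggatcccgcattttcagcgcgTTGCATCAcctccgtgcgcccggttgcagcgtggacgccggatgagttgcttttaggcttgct
TARS1: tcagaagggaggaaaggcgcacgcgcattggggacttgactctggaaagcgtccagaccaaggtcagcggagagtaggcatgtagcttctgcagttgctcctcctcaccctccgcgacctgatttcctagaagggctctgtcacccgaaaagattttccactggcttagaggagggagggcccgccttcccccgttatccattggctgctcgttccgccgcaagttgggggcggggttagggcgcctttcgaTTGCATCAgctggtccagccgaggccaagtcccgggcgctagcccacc
A match is a run of letters and not a measured binding site.

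Among the cytosolic synthetases, transcripts of 7 of 19 fell after RB-1 and 3 rose, while 9 did not pass (edgeR's quasi-likelihood test, Benjamini-Hochberg adjusted p under 0.05 over all tested genes). Among the mitochondrial synthetases 1 of 16 fell and 3 rose, and 12 did not pass. Of all tested genes, 28.8% passed, 12.8% higher and 16.1% lower. The median log2 fold change was -0.20 for the cytosolic and 0.21 for the mitochondrial members, against 0.012 for all genes. The share of cytosolic members that fell was above the background, while 3 of 19 and 3 of 16 that rose were near it. This background was not matched to the members for level or GC content, which are compared further below. Both RB-1 libraries lay above both DMSO libraries for 6 cytosolic and 7 mitochondrial members (35.3% of all genes) and below for 10 and 3 (34.3% of all genes). In bulk samples fewer cells of a kind and less RNA per cell cannot be told apart.

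**Figure D1:**
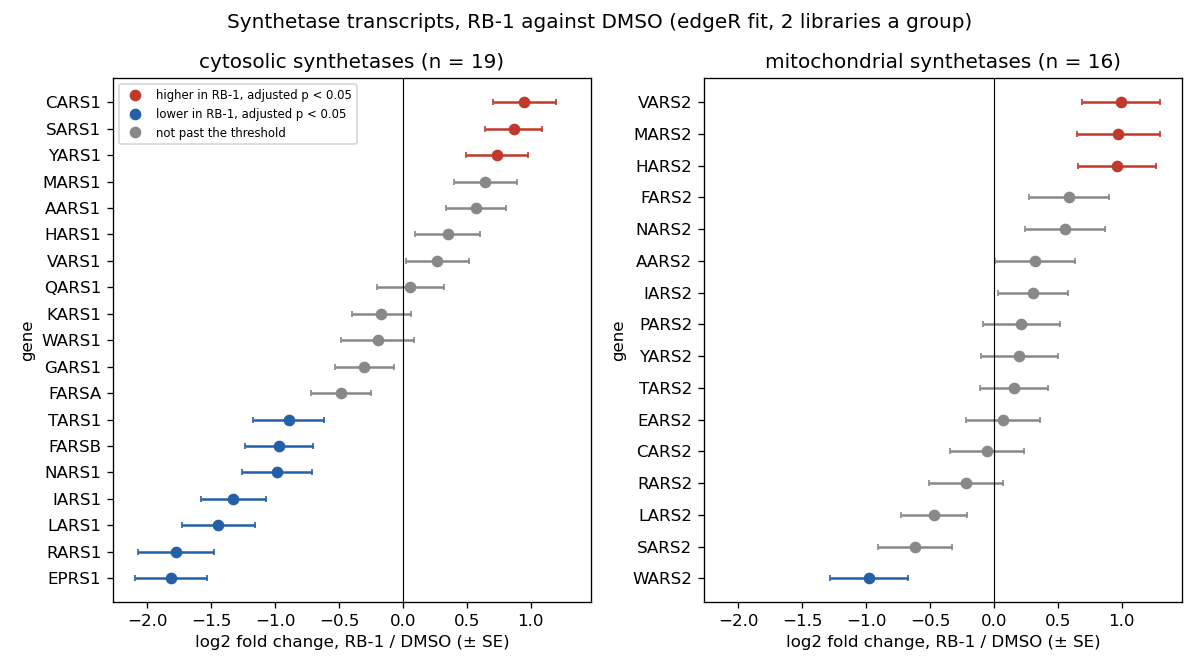
Log2 fold change (RB-1 over DMSO, ± SE from the edgeR fit) of the 19 cytosolic and 16 mitochondrial synthetase genes, coloured by call at an adjusted p under 0.05. The cytosolic genes spread from -1.81 (EPRS1) to 0.95 (CARS1), and the mitochondrial ones from -0.98 (WARS2) to 1.0 (VARS2).

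The largest falls were in 4 enzymes of the multi-synthetase complex. EPRS1, the glutamyl-prolyl enzyme, stood at 322 and 206 CPM in DMSO and 65.2 and 85.0 in RB-1, 3.52-fold lower (log2 fold change -1.81 ± 0.28, adjusted p = 0.00191; ± is the SE). RARS1, the arginyl enzyme, stood at 148 and 98.8 CPM in DMSO and 30.1 and 41.9 in RB-1, 3.43-fold lower (-1.78 ± 0.30, adjusted p = 0.00263). In both genes D2, the lower DMSO library, was well above either RB-1 library. LARS1, the leucyl enzyme, also known as a leucine sensor for mTORC1, stood at 243 and 178 CPM in DMSO and 62.1 and 92.5 in RB-1, 2.72-fold lower (-1.44 ± 0.28, adjusted p = 0.00517). IARS1, the isoleucyl enzyme, stood at 514 and 436 CPM in DMSO and 156 and 223 in RB-1, 2.51-fold lower (-1.33 ± 0.25, adjusted p = 0.00479). These 4 genes passed under each of the 16 alternatives tried, with log2 fold changes of -2.08 to -1.35 for EPRS1, -2.03 to -1.46 for RARS1, -1.76 to -0.96 for LARS1 and -1.61 to -0.96 for IARS1.

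The other 3 cytosolic falls were smaller. NARS1, the asparaginyl enzyme, stood at 199 and 148 CPM in DMSO and 72.9 and 102 in RB-1 (-0.99 ± 0.27, adjusted p = 0.0216). FARSB, the beta subunit of the phenylalanyl enzyme, stood at 66.8 and 59.4 CPM in DMSO and 29.9 and 34.5 in RB-1 (-0.97 ± 0.27, adjusted p = 0.0220). TARS1, the threonyl enzyme, stood at 349.6 and 232 CPM in DMSO and 130.0 and 183 in RB-1 (-0.89 ± 0.28, adjusted p = 0.0358). The groups did not overlap for any of the 3, and in all 7 genes that fell D1 was the highest library and R1 the lowest. Each of these 3 calls was lost for some library left out. NARS1 was at -0.76 without D1 (adjusted p = 0.158) and -0.75 without R1 (0.122). FARSB was at -0.89 without D1 (adjusted p = 0.149), -1.03 without D2 (adjusted p = 0.107) and -0.87 without R1 (0.0756). TARS1 was at -0.57 without D1 (adjusted p = 0.270) and -0.66 without R1 (0.198). Scaled by library totals alone, NARS1 was at -0.80 (adjusted p = 0.0796), FARSB at -0.78 (adjusted p = 0.0846) and TARS1 at -0.71 (adjusted p = 0.120). TARS1 was also under the bar by upper-quartile scaling, at -0.78 (adjusted p = 0.0596), and with no filter on low counts, at -0.89 (adjusted p = 0.0517).

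The phenylalanyl enzyme is built from alpha and beta subunits, and their transcripts differed in call. FARSA, the alpha subunit, stood at 119 and 119 CPM in DMSO and 84.1 and 86.1 in RB-1, without overlap, and did not pass (-0.48 ± 0.23, adjusted p = 0.143), beside -0.97 for FARSB. Transcript GC content was 60.3% for FARSA and 41.6% for FARSB. With an offset for length and GC content both passed as lower, FARSA at -0.88 (adjusted p = 0.0123) and FARSB at -0.63 (adjusted p = 0.0336). The difference between the subunits was not tested.

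The cytosolic rises were CARS1, SARS1 and YARS1. CARS1, the cysteinyl enzyme, stood at 121 and 95.6 CPM in DMSO and 232 and 186 in RB-1, 1.93-fold higher (0.95 ± 0.25, adjusted p = 0.0180). SARS1, the seryl enzyme, which also charges the selenocysteine tRNA, stood at 332 and 310.2 CPM in DMSO and 622 and 549 in RB-1, 1.82-fold higher (0.87 ± 0.22, adjusted p = 0.0163). YARS1, the tyrosyl enzyme, stood at 182 and 141 CPM in DMSO and 288 and 249 in RB-1, 1.67-fold higher (0.74 ± 0.24, adjusted p = 0.0424). The groups did not overlap in any of the 3, and R1 was the highest library in each. CARS1 was at 0.81 without D2 (adjusted p = 0.141) and 0.79 without R1 (0.0859). SARS1 was at 0.92 without D1 (adjusted p = 0.0616), 0.84 without D2 (adjusted p = 0.100) and 0.78 without R1 (0.0790). YARS1 was at 0.93 without D1 (adjusted p = 0.0718), 0.59 without D2 (adjusted p = 0.269) and 0.63 without R1 (0.151), and at 0.74 (adjusted p = 0.0538) with no filter on low counts.

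**Figure D2:**
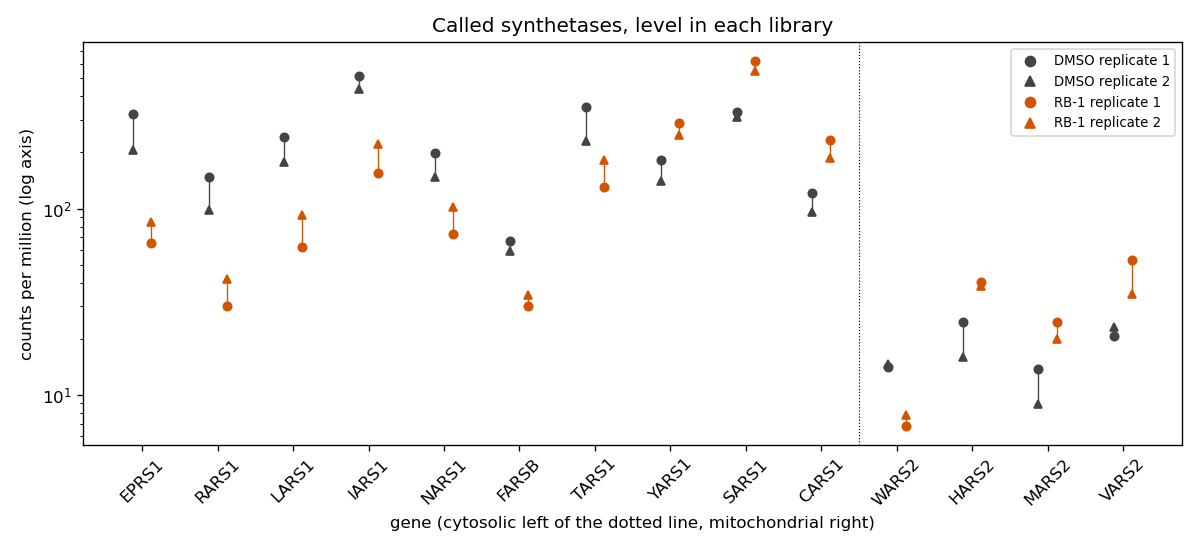
Level of the 14 called synthetase genes in each library, in CPM on a log axis, with circles for replicate 1 and triangles for replicate 2 (grey DMSO, orange RB-1). In none of the 14 genes do DMSO and RB-1 libraries overlap, and 69.7% of the tested genes have no overlap either. The 14 were called from these same libraries, so the separation is no added support.

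The 9 cytosolic genes that did not pass ranged from -0.48 to 0.64. AARS1, the alanyl enzyme (0.58 ± 0.23, adjusted p = 0.0895), and MARS1, the methionyl enzyme (0.64 ± 0.25, adjusted p = 0.0735), had both RB-1 libraries above both DMSO libraries. They passed by upper-quartile scaling, AARS1 at 0.68 (adjusted p = 0.0480) and MARS1 at 0.75 (adjusted p = 0.0403). About 5.05% of the exon bases of MARS1 overlap DDIT3 and 7.38% overlap ARHGAP9, both on the opposite strand, and it is not known here whether counting used strand. HARS1, the histidyl enzyme (0.35), and VARS1, the valyl enzyme (0.27), were also above 0, and QARS1, the glutaminyl enzyme, was at 0.057. The genes that serve both compartments, GARS1 for glycine (-0.30) and KARS1 for lysine (-0.17), did not pass, and KARS1 was at 0.018 by library totals. WARS1, the tryptophanyl enzyme, known for its induction by interferon-gamma, had the widest replicate spread of any uncalled member, at 317 and 262 CPM in DMSO and 184 and 322 in RB-1 (-0.20 ± 0.29, adjusted p = 0.636). Its RB-1 libraries lay on either side of the DMSO libraries.

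Membership of the multi-synthetase complex was examined next. Of its 7 enzymes in the set EPRS1, IARS1, LARS1 and RARS1 fell and none rose, with a median log2 fold change of -1.33. KARS1, MARS1 and QARS1 did not pass. Of the 12 cytosolic genes outside it 3 rose and 3 fell, with a median of 0.037. Transcript GC content differed along with these calls. It was 43.2% for EPRS1, 43.6% for IARS1, 41.5% for LARS1 and 41.4% for RARS1. KARS1 was at 46.6%, MARS1 at 53.7% and QARS1 at 55.2%. Outside the complex, FARSB, NARS1 and TARS1, which fell, were at 41.6%, 44.3% and 43.6%. Of all tested genes 16.1% fell, and 28.5% of those at or below 44.3% GC. Membership was not tested at matched GC content. Of the scaffolds, AIMP1 stood at 43.5 and 36.0 CPM in DMSO and 16.6 and 22.2 in RB-1 and fell (-1.03 ± 0.30, adjusted p = 0.0252). EEF1E1, also called AIMP3, stood at 28.6 and 21.0 CPM in DMSO and 69.6 and 48.4 in RB-1 and rose (1.25 ± 0.31, adjusted p = 0.0137). AIMP2 was at -0.075 and did not pass, though it did so with an offset for length and GC content (-0.65, adjusted p = 0.0315). Genes of the complex thus moved both ways. AIMP1 was at -0.89 without D1 (adjusted p = 0.176), -1.14 without D2 (adjusted p = 0.0913) and -0.83 without R1 (0.0994), and at -0.84 (adjusted p = 0.0905) by library totals. EEF1E1 was at 1.07 without D2 (adjusted p = 0.129) and 0.97 without R1 (0.0675). Exon bases overlap TBCK on the opposite strand in AIMP1 (11.6%) and EIF2AK1 in AIMP2 (28.9%), and 18.7% of those of EEF1E1 are shared with a read-through gene.

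The cytosolic genes commonly listed as induced by ATF4 moved both ways. Of 12, CARS1, SARS1 and YARS1 rose and EPRS1, IARS1, LARS1, NARS1 and TARS1 fell, with a median log2 fold change of -0.25. Of the other 7 cytosolic genes none rose and FARSB and RARS1 fell, with a median of -0.17. ATF4 itself stood at 412 and 373 CPM in DMSO and 797 and 796 in RB-1 and rose (1.02 ± 0.22, adjusted p = 0.00768). Of the 8 genes listed for the response to uncharged tRNA 6 rose and none fell, against 12.8% and 16.1% of all tested genes. The charging of tRNA was not measured, so what raised these genes is not known here. The 6 were the transcription factor DDIT3 (1.99), the glutathione-degrading enzyme CHAC1 (1.85), the pseudokinase TRIB3 (1.62), asparagine synthetase ASNS (1.30), ATF4 and the leucine sensor SESN2 (0.96). In DDIT3, CHAC1 and TRIB3 the RB-1 libraries were far apart. DDIT3 stood at 10.5 and 8.64 CPM in DMSO and 51.3 and 25.2 in RB-1. CHAC1 stood at 1.89 and 3.42 CPM in DMSO and 13.1 and 6.01 in RB-1. TRIB3 stood at 33.0 and 24.0 CPM in DMSO and 117 and 58.7 in RB-1. EIF2AK4, which encodes GCN2, lay near the threshold and did not pass (-0.73 ± 0.25, adjusted p = 0.0517). It passed as lower with RLE factors, the stricter filter, DESeq2, edgeR's legacy fit and without R2, at -0.97 (adjusted p = 0.0282) in the last. Its partner GCN1 did not pass (-0.42). ATF4 was at 0.97 without D2 (0.0572). TRIB3 was at 1.43 without D2 (adjusted p = 0.0564) and 1.05 without R1 (0.0542). CHAC1 was at 1.48 without D1 (adjusted p = 0.0902) and 1.18 without R1 (0.129). SESN2 was at 0.93 without D1 (adjusted p = 0.185), 1.0 without D2 (adjusted p = 0.164) and 0.93 without R1 (0.0695). About 27.2% of the exon bases of DDIT3 overlap MARS1 on the opposite strand.

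The promoter element crossed these directions. Of the 6 cytosolic genes with the element in their window, CARS1 rose and IARS1, NARS1 and TARS1 fell. AARS1 and MARS1, both above 0, did not pass. The calls of CARS1, NARS1 and TARS1 were each lost under some alternatives, and that of IARS1 under none. The directions also split by transcript GC content. It was 53.1% for CARS1, 53.5% for AARS1 and 53.7% for MARS1. IARS1 was at 43.6%, NARS1 at 44.3% and TARS1 at 43.6%. The element was not tested apart from GC content. SARS1, which rose, and EPRS1, FARSB and RARS1, which fell, had windows without these letters.

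Fewer mitochondrial synthetases passed. VARS2, the valyl enzyme, stood at 20.7 and 23.2 CPM in DMSO and 53.0 and 34.5 in RB-1, 2.0-fold higher (1.0 ± 0.30, adjusted p = 0.0331). MARS2, the methionyl enzyme, stood at 13.7 and 8.91 CPM in DMSO and 24.6 and 19.8 in RB-1, 1.97-fold higher (0.97 ± 0.32, adjusted p = 0.0450). HARS2, the histidyl enzyme, stood at 24.4 and 15.9 CPM in DMSO and 40.3 and 38.5 in RB-1, 1.95-fold higher (0.97 ± 0.31, adjusted p = 0.0375). In all 3 the lower RB-1 library exceeded the higher DMSO library. WARS2, the tryptophanyl enzyme, stood at 14.0 and 14.6 CPM in DMSO and 6.76 and 7.80 in RB-1, 1.97-fold lower (-0.98 ± 0.31, adjusted p = 0.0360). VARS2 and HARS2 are uncertain, since 22.0% of the exon bases of VARS2 are shared with GTF2H4 on the same strand and 11.7% of those of HARS2 overlap HARS1 on the opposite strand.

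Each of these 4 mitochondrial calls was lost for at least 3 of the libraries left out in turn. VARS2 was at 0.92 without D1 (adjusted p = 0.188), 1.10 without D2 (adjusted p = 0.134) and 0.66 without R1 (0.152). MARS2 was at 1.32 without D1 (adjusted p = 0.0777), 0.72 without D2 (adjusted p = 0.323) and 0.82 without R1 (0.152), and at 0.98 (adjusted p = 0.0569) with no filter on low counts. HARS2 was at 1.31 without D1 (adjusted p = 0.0633), 0.71 without D2 (adjusted p = 0.308), 0.94 without R1 (adjusted p = 0.0961) and 1.0 without R2 (0.0610). WARS2 was at -1.0 without D1 (adjusted p = 0.143), -0.93 without D2 (adjusted p = 0.184) and -0.87 without R1 (0.114), at -0.87 (adjusted p = 0.0537) by upper-quartile scaling and at -0.78 (adjusted p = 0.112) by library totals.

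The 12 mitochondrial genes that did not pass ranged from -0.62 to 0.59, 8 above 0 and 4 below. Lowest was SARS2, the seryl enzyme, at 23.1 and 29.1 CPM in DMSO and 17.6 and 16.4 in RB-1 (-0.62 ± 0.29, adjusted p = 0.130), with 46.2% of its exon bases shared with another gene on the same strand. Then came LARS2 for leucine (-0.47), RARS2 for arginine (-0.22) and CARS2 for cysteine (-0.054). FARS2, the phenylalanyl enzyme, stood at 14.3 and 16.6 CPM in DMSO and 28.2 and 18.4 in RB-1 (0.59 ± 0.31, adjusted p = 0.183). IARS2, the isoleucyl enzyme, stood at 182 and 118 CPM in DMSO and 162 and 208 in RB-1 (0.31 ± 0.27, adjusted p = 0.426). These 2 had the widest replicates of the uncalled mitochondrial members, and the groups of IARS2 overlapped while those of FARS2 did not. The others were NARS2 (0.56), AARS2 (0.32), PARS2 (0.22), YARS2 (0.20), TARS2 (0.16) and EARS2 (0.072), for asparagine, alanine, proline, tyrosine, threonine and glutamate.

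Cytosolic and mitochondrial enzymes of the same amino acid were set side by side for 13 pairs, as the ratio of CPM per kilobase of transcript within each library. The cytosolic transcript was the more abundant in all 4 libraries for 12 of 13 pairs. The exception was isoleucine, where the ratio of IARS1 to IARS2 was 2.16 and 2.83 in DMSO, 0.734 and 0.822 in RB-1, so that the order turned on this scale. It rests on the transcript lengths used, 4656 bases for IARS1 and 3560 for IARS2. In CPM not divided by length, IARS1 and IARS2 stood at 156 and 162 in R1 and at 223 and 208 in R2. The ratio was also lower for arginine (RARS1 to RARS2: 4.28 and 3.05 in DMSO, 1.23 and 1.26 in RB-1) and for asparagine (NARS1 to NARS2: 14.5 and 15.1 in DMSO, 4.03 and 6.17 in RB-1). It was higher after RB-1 for serine (SARS1 to SARS2: 15.7 and 11.7 in DMSO, 38.7 and 36.5 in RB-1) and for cysteine (CARS1 to CARS2: 2.09 and 1.88 in DMSO, 3.83 and 4.21 in RB-1). In all 13 pairs the RB-1 ratios lay outside the range of the DMSO ratios, 8 below and 5 above, and in 5 pairs the log2 fold changes of the enzymes had opposite signs. The margin was narrow for alanine, where the ratio was 11.2 in D2 and 11.2 in R1 at this rounding. Of single tested genes, 69.7% had groups that did not overlap. The ratios were not tested, and no background over other gene pairs was computed.

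**Figure D3:**
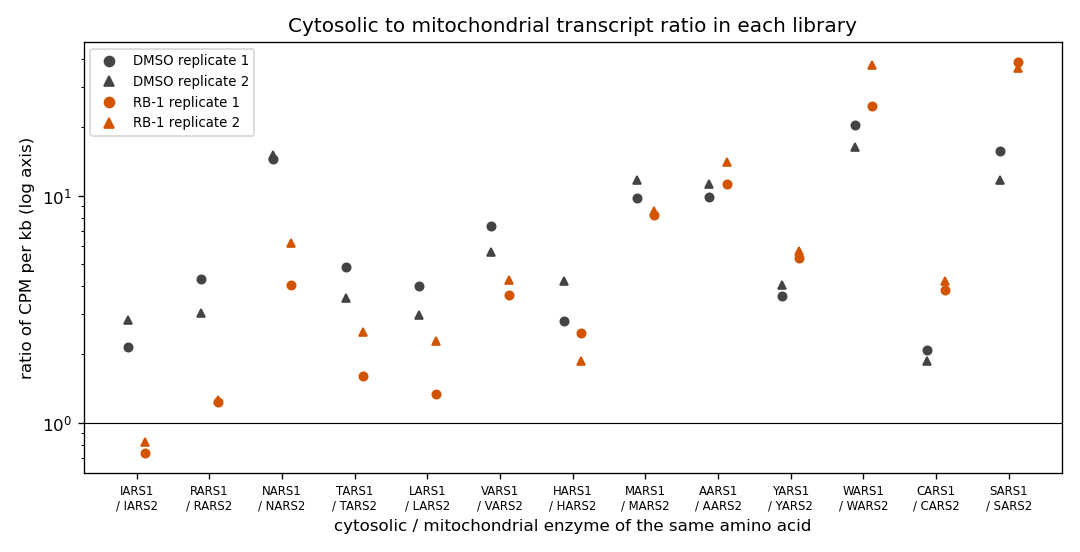
Ratio of the cytosolic to the mitochondrial transcript level (CPM per kilobase, log axis) for 13 amino acids in each library. The points below 1 are the 2 RB-1 libraries of IARS1 over IARS2, at 0.734 and 0.822.

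On the per-kilobase scale the cytosolic members had a median level of 55.0 CPM per kilobase in DMSO and the mitochondrial ones 8.78, against 7.51 for all tested genes. SARS1 (171), GARS1 (148) and IARS1 (102) had the highest cytosolic levels in DMSO and FARSB (18.7) the lowest. After RB-1, SARS1 was at 311 and IARS1 at 40.7 CPM per kilobase. IARS2 (42.0) led the mitochondrial set in DMSO and PARS2 (3.58) was last. Summed over the 19 cytosolic genes, the libraries held 4229 and 3485 CPM in DMSO and 3408 and 3476 in RB-1, so that the RB-1 sums were close to that of D2. The 16 mitochondrial genes summed to 577 and 478 CPM in DMSO and 623 and 589 in RB-1.

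By catalytic class, 4 of 10 cytosolic class I genes fell and 2 rose (median log2 fold change -0.070), and 3 of 9 class II genes fell and 1 rose (median -0.30). In mitochondria 2 of 9 class I genes rose and 1 fell (median 0.072), and 1 of 7 class II genes rose (median 0.32). The shares over all tested genes were 12.8% higher and 16.1% lower, and the classes were not compared by a test.

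The members that fell shared a low GC content, a property the list of genes was not built on. GC content of the longest basic coding transcript (GENCODE v29) ran from 41.4% to 44.3% in the 8 members that fell and from 48.4% to 60.2% in the 6 that rose. Among the 11 members at or below 44.3%, a bound set after the values were seen, 8 fell and none rose, and the other 3 were the mitochondrial IARS2, NARS2 and RARS2. Of the 24 members above it 6 rose, and since the bound is the highest GC content among the members that fell, none there could have fallen. All tested genes leaned the same way, with 9.04% higher and 28.5% lower at or below the bound and 14.7% higher and 9.83% lower above it. Across genes, Spearman's correlation of GC content with the log2 fold change was 0.73 over the 19 cytosolic members, 0.10 over the 16 mitochondrial ones and 0.30 over 13596 tested genes, where all points share the same 4 libraries. For transcript length it was -0.36, 0.14 and -0.38 in the same order. Length also followed the difference between R2 and R1 (0.44 over all tested genes). The part of GC content and length in these results was not tested beyond the offset that follows.

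A fit with an offset for length and GC content in each library gave smaller falls for the 7 cytosolic genes. EPRS1 was at -1.38, RARS1 at -1.64, LARS1 at -0.96, IARS1 at -0.96, NARS1 at -0.81 and FARSB at -0.63, all still past the threshold. TARS1 was at -0.56 (adjusted p = 0.0775) and no longer passed, while FARSA, at -0.88 (adjusted p = 0.0123), did. Of the rises CARS1 passed at 0.75 (adjusted p = 0.0275), and SARS1, at 0.51 (adjusted p = 0.0547), and YARS1, at 0.60 (adjusted p = 0.0571), did not. In mitochondria VARS2 (0.89), MARS2 (0.96), HARS2 (0.80) and WARS2 (-0.76) passed as before, and SARS2, at -1.03 (adjusted p = 0.0106), passed as lower.

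**Figure D4:**
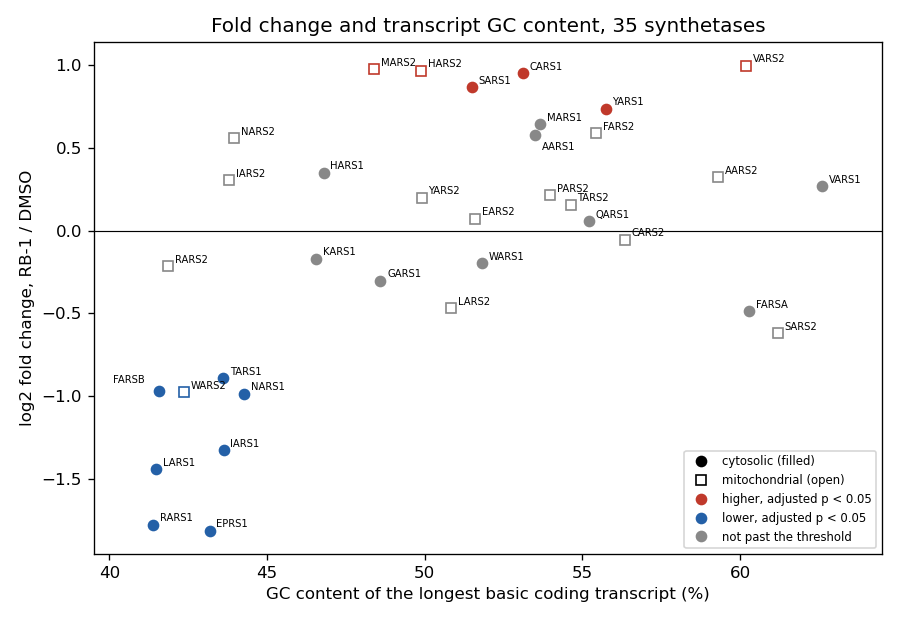
Log2 fold change of the 35 synthetase genes against the GC content of the longest basic coding transcript, for cytosolic and mitochondrial enzymes. The 8 genes that fell lie between 41.4% and 44.3%, beside the uncalled mitochondrial genes IARS2, NARS2 and RARS2.

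Other genes linked to tRNA were counted by role, with the 8 listed above for the response to uncharged tRNA among them. Over all 43 of them 11 rose and 3 fell (25.6% and 6.98%, against 12.8% and 16.1% of all tested genes). Of the 11 rises 6 were in that response list, whose genes do not all act on tRNA. None of 8 genes for mitochondrial transamidation, formylation and delivery passed. The smallest p-values there were those of the elongation factors GFM1 (-0.66, adjusted p = 0.108) and TSFM (0.57, adjusted p = 0.175) and of MTFMT, the methionyl-tRNA formyltransferase (0.53, adjusted p = 0.238). Of 6 cytosolic delivery factors EEF1G, a subunit of the exchange factor of eEF1A, rose (0.73 ± 0.22, adjusted p = 0.0324), and its partners EEF1B2 (0.61, adjusted p = 0.0965) and EEF1D (0.44, adjusted p = 0.262) did not pass. EEF1G is uncertain, since 99.9% of its exon bases lie in another gene on the same strand. It was at 0.74 without D1 (adjusted p = 0.110), 0.75 without D2 (adjusted p = 0.126) and 0.60 without R1 (0.193), and at 0.24 (adjusted p = 0.310) with the length and GC offset. Without R2, EEF1B2 and EEF1D passed at 0.87 and 0.78 (adjusted p = 0.0323 and 0.0456).

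Proofreading and release genes moved both ways. DTD1, which removes D-amino acids from tRNA, rose (0.82 ± 0.26, adjusted p = 0.0363). AARSD1, an editing protein related to the alanyl enzyme, fell (-1.10 ± 0.29, adjusted p = 0.0191), as did the peptidyl-tRNA hydrolase PTRH2 (-1.06 ± 0.27, adjusted p = 0.0163). These 3 calls were lost without D1, without D2 and without R1. DTD1 was then at 0.90 without D1 (adjusted p = 0.104), 0.76 without D2 (adjusted p = 0.183) and 0.55 without R1 (0.175). AARSD1 was at -1.07 without D1 (adjusted p = 0.114), -1.11 without D2 (adjusted p = 0.107) and -1.11 without R1 (0.0559). PTRH2 was at -1.03 without D1 (adjusted p = 0.0993), -1.06 without D2 (adjusted p = 0.104) and -0.93 without R1 (0.0629). By library totals AARSD1 was at -0.91 (adjusted p = 0.0649) and PTRH2 at -0.86 (adjusted p = 0.0633). About 34.2% of the exon bases of AARSD1 are shared with a read-through gene.

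None of 5 selenocysteine genes passed, with the selenophosphate synthetases SEPHS2 at 0.56 and SEPHS1 at 0.53 and the elongation factor EEFSEC at 0.21. Without R2 the first pair passed, SEPHS2 at 0.79 (adjusted p = 0.0491) and SEPHS1 at 0.92 (adjusted p = 0.0328), and EEFSEC was at -0.17 with the length and GC offset. Of 8 genes for tRNA maturation and export, TSEN34, a subunit of the splicing endonuclease, rose (1.11 ± 0.30, adjusted p = 0.0220). It was at 0.89 without D2 (adjusted p = 0.169) and 0.77 without R1 (0.123). Its partner TSEN15 (0.55, adjusted p = 0.117) and TRNT1, which adds the CCA end (-0.71, adjusted p = 0.129), did not pass, though TSEN15 did with the offset, at 0.83 (adjusted p = 0.0190).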

How the data were processed

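Gene counts from RNA-seq of 2 DMSO and 2 RB-1 libraries were used. The deposited values are raw read counts per Ensembl gene, 1 column per library, with no normalisation visible in the values (aligner, counter and strand setting: not given in the sources used here). All IDs are human, but the submitters' processing notes name mouse builds (GRCm38, mm10), so the only coordinates printed are those of RefSeq's own promoter windows. Symbols matched 20148 of 20263 IDs. Counts were filtered with filterByExpr, scaled by TMM (factors 0.868 to 1.10) and tested with edgeR 4.0.16 in R 4.3.3 (estimateDisp, robust glmQLFit, glmQLFTest, group as the only term), with Benjamini-Hochberg adjustment at 0.05. The SE is the log2 fold change over the square root of F, and CPM use TMM library sizes. Replicates differed beyond sampling noise (chi-square per degree of freedom 128 or more), so all 4 libraries were kept. The fit was tested on simulated counts. The rule for the members uses gene names only, but members, lists, motifs and tests were all chosen with earlier results of these data known. Values per library are given for called members and the 3 uncalled ones with the widest replicates (WARS1, IARS2, FARS2), and for FARSA, SARS2, AIMP1, EEF1E1, ATF4, DDIT3, CHAC1 and TRIB3, chosen after their values were seen. In the other lists the 3 genes with the smallest p and every called gene are named, except 1 item that is not reported here, and EIF2AK4 and GCN1. Alternatives were RLE, upper-quartile and total scaling, no filter, a filter of 50 counts in 2 libraries, DESeq2 1.42.0, limma-voom (limma 3.58.1), adjusted p under 0.01, a replicate block, a length and GC offset (mgcv 1.9.3), both together, each library left out and, added after seeing the data, edgeR's legacy fit.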

Additional observations from a re-analysis of the deposited data

How the results depend on the processing

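With 2 libraries per group, a gene that did not pass may still have changed. Of 560 comparisons of a member with an alternative, 484 kept direction and side of the threshold, 52 lost a call, 6 gained one and 18 changed sign, each of the last in a gene that had not passed. In the cytosolic set 5 were higher by upper-quartile scaling, 2 with no count filter, 1 with the length and GC offset, 2 with the replicate block added to it and 0 at an adjusted p under 0.01, and 4 were lower by library totals and 4 at an adjusted p under 0.01. In the mitochondrial set 2 were higher with no count filter and 0 at an adjusted p under 0.01, where 0 were lower, as were 0 by upper-quartile scaling and 0 by library totals, against 2 with the offset, with or without the replicate block. In the other lists 4 were higher and 0 lower at an adjusted p under 0.01, 0 lower by library totals and 5 lower with the offset. Over all genes 513 were higher and 1067 lower at an adjusted p under 0.01, and 1400 were lower by library totals, which moved the median log2 fold change by 0.20 (upper-quartile scaling by 0.11). Higher calls made up 44.2% of all calls, 54.3% by upper-quartile scaling, 59.5% by library totals and 32.5% at an adjusted p under 0.01. Leaving out 1 library gave 522 to 1955 genes higher and 1065 to 2443 lower in all, 0 to 3 and 4 to 7 in the cytosolic set, 0 to 2 and 0 to 1 in the mitochondrial set, and 3 to 15 and 0 to 4 in the other lists. The labels do not say that replicate numbers pair the libraries, and the replicate differences of DMSO and RB-1 correlated at -0.091 over genes. The replicate block gave 1741 genes higher and 2314 lower, with 3 and 7 in the cytosolic and 3 and 1 in the mitochondrial set. Signs were followed for the members and the genes named from the other lists. By library totals the sign changed for KARS1 (0.018), CARS2 (0.13) and AIMP2 (0.12), and by upper-quartile scaling for CARS2 (0.049) and AIMP2 (0.025). With the offset it changed for QARS1 (-0.13), PARS2 (-0.058), TARS2 (-0.049), YARS2 (-0.061), EEFSEC (-0.17) and GCN1 (0.024), which with the replicate block added were at -0.12, -0.060, -0.044, -0.035, -0.16 and 0.026. With 1 library left out the sign changed for 6 of these genes, QARS1 from -0.17 to 0.35, WARS1 from -0.66 to 0.16, CARS2 from -0.29 to 0.16, EARS2 from -0.21 to 0.32, YARS2 from -0.018 to 0.49 and AIMP2 from -0.31 to 0.13. The causes were not tested.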
